A study of Mus musculus with 8 samples.

Results

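The oligodendrocyte precursor genes are 8 genes taken by name from the gene table: Pdgfra, Cspg4, Olig1, Olig2, Sox10, Gpr17, Nkx2-2 and Sox8. All 8 were found among 23845 rows, and all 8 passed the filter on low values that left 13681 genes for testing. The table comes from primary hippocampal neurons of mouse embryos at embryonic day 19, infected with a lentivirus that carried a short hairpin RNA (shRNA) at 13 to 15 days in vitro and collected at 17 to 19 days in vitro. Knockdown neurons received a hairpin against CNOT7, a deadenylase of the CCR4-NOT complex that shortens poly(A) tails, and scrambled neurons received a scrambled hairpin, so that virus infection was common to both. Polyadenylated RNA was bound to poly(U) agarose and either eluted whole at 75 °C (total RNA) or eluted at 75 °C after a 50 °C wash that, per the labels, takes away tails under 50 nucleotides (long tails). Each of the 4 groups, knockdown long tails, scrambled long tails, knockdown total and scrambled total, had 2 libraries. The labels do not say whether these came from separate cultures or whether long-tail and total RNA came from the same cultures, and p-values therefore measure only the spread between these libraries, which may be technical.

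Oligodendrocyte precursor cells divide and migrate through the brain, and some of them leave the cell cycle and become myelin-forming oligodendrocytes. The basic helix-loop-helix factors Olig1 and Olig2 and the SoxE factors Sox8 and Sox10 are used through the whole lineage. The receptor PDGFRA and the proteoglycan NG2, encoded by Cspg4, mark the dividing precursor and are lost as it differentiates, whereas the receptor GPR17 marks a passing stage of committed, not yet myelinating cells. The homeodomain factor Nkx2-2 takes part in the same transition. Cultures described as neuronal can hold other brain cells, and the labels give neurons only.

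Values are TPM (a gene's length-scaled share of each library's transcripts), rounded to whole numbers in the deposited table, and differences are on the log2(TPM + 1) scale. Cnot7, the target, stood at 12 and 16 TPM in knockdown total and 42 and 36 TPM in scrambled total libraries, and at 9 and 11 TPM in knockdown long-tail and 28 and 31 TPM in scrambled long-tail libraries. Its difference was -1.42 in total RNA (limma adjusted p = 0.153) and -1.48 in long tails (adjusted p = 0.173). The main fit thus did not call the target itself, so the absence of a call for a gene says little. The authors' deposited tables list Cnot7 at -1.12 for total RNA and -1.18 for long tails, as log2 knockdown over scrambled. The summed level of 17 neuronal markers ranged from 7519 to 9579 TPM in knockdown and from 6627 to 8899 TPM in scrambled libraries. One of them, the tubulin gene Tubb3, is in the authors' deposited tables at 0.83 for total RNA and 1.00 for long tails, as log2 knockdown over scrambled. Tubb3 does not stand for the list. Of the 17 neuronal markers, 10 were above 0 and 7 below for knockdown minus scrambled in total RNA, with a median of 0.11. The 17 astrocyte markers summed to 4724 to 7167 TPM in knockdown and 5560 to 7429 TPM in scrambled libraries, which overlap, and Gfap alone held 1488 to 3078 TPM of that. Of 15 microglia markers 9 were at 1 TPM or less in all 8 libraries, with Cx3cr1, Tmem119, Aif1, Itgam and Ptprc listed at 0, and so were 9 of 12 endothelial markers, with Cldn5, Pecam1, Tek, Tie1 and Esam listed at 0. The 12 pericyte and smooth muscle markers summed to 304 to 664 TPM in knockdown and 352 to 589 TPM in scrambled libraries. Kcnj8, Abcc9, Myh11 and Des of that list were at 0, and its most abundant genes, picked after their values were seen, were Acta2 at 138 to 318 TPM and Tagln at 127 to 315 TPM over the 8 libraries. On the first principal component, knockdown long-tail library 2 was far from the remaining 7, and the ribosomal RNA precursor Rn45s took between 2.898% and 18.56% of TPM.

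The promoters shown are those of the precursor surface markers Pdgfra and Cspg4, whose levels varied most alike across the libraries apart from the Olig pair, and of Nkx2-2, the gene least like Pdgfra. They run from 250 bases before to 50 bases after the start site, from RefSeq on GRCm38.p6. Capitals mark E-boxes (CANNTG), the motif bound by basic helix-loop-helix factors such as OLIG2.
Pdgfra promoter, chr5:75152001-75152300, plus strand: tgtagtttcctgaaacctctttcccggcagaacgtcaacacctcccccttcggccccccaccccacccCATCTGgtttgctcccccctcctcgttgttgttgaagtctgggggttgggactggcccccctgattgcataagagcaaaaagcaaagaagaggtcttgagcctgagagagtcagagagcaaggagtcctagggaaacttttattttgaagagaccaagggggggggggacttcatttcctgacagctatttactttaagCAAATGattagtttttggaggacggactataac
Cspg4 promoter, chr9:56864854-56865153, plus strand: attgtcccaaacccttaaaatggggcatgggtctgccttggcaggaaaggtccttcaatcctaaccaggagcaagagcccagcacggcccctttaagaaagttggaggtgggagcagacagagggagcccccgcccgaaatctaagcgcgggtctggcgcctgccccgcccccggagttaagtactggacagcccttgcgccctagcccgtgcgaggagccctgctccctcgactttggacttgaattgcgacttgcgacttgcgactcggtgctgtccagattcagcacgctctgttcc
Nkx2-2 promoter, chr2:147186353-147186652, minus strand: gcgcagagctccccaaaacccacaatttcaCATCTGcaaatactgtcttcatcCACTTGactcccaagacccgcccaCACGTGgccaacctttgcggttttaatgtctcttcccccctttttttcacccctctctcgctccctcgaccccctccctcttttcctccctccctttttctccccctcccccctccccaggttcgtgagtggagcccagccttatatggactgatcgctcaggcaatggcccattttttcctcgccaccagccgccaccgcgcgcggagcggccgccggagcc
Olig1 and Sox10 had no RefSeq promoter at hand, and Gpr17 was left out of this search. RefSeq promoters were searched for the other 5 of the 8 genes (Pdgfra, Cspg4, Olig2, Nkx2-2 and Sox8). E-boxes stood in those of Pdgfra (2), Nkx2-2 (3) and Sox8 (1), and in 72.3% of all 32851 promoters of this length. A SOX motif (ACAAAG or ACAATG, either strand) stood in that of Olig2 (1) and in 28.6% of all promoters. E-boxes were searched without regard to strand since CANNTG reads the same on both; no match says only that these letters are not in the window.

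The 3′ untranslated regions matter in a deadenylase knockdown because proteins bound there can bring CCR4-NOT to an mRNA. In GENCODE M21 on GRCm38, the longest complete coding transcript of each gene was searched on the sense strand for TTTTAT (the core of the cytoplasmic polyadenylation element), TATTTAT (an AU-rich element) and TGTANATA (the Pumilio-type motif), the first 2 of which can share bases. For the first 5 genes the windows below hold the TTTTAT nearest the 3′ end, in capitals, and for Sox10, which has no TTTTAT, its TATTTAT; matches of the other motifs can lie nearer the end.
Pdgfra, chr5:75197693-75197722, plus strand: ctgctttctatTTTTATgatgacaatcaaa
Olig1, chr16:91271852-91271881, plus strand: tttaactggcaTTTTATttgacctctaact
Olig2, chr16:91228557-91228586, plus strand: tctatcacctgTTTTATttttgtaaagaaa
Nkx2-2, chr2:147183285-147183314, minus strand: tttatttttatTTTTATttttaatttgttc
Sox8, chr17:25566040-25566069, minus strand: agcaaactcatTTTTATgcagtcttttttt
Sox10, chr15:79155012-79155041, minus strand: cgctgccccttTATTTATctccatagtcgc
TTTTAT stood 5 times in the 3′ untranslated region of Nkx2-2, 4 times in Sox8, 3 times in Pdgfra, 2 times in Olig1 and 1 time in Olig2, and in 57.1% of all tested genes with a transcript. TATTTAT stood 1 time each in Olig2, Sox10, Nkx2-2 and Sox8, against 30.8% of all genes, and TGTANATA 2 times in Pdgfra and 1 time each in Olig2 and Nkx2-2, against 27.5% of all genes. Cspg4 had none of the 3 in 980 bases, and Gpr17 none in 3992 bases.

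Olig1 was the highest of the 8 genes. It stood at 579 and 585 TPM in knockdown total, 805 and 540 TPM in scrambled total, 507 and 669 TPM in knockdown long-tail and 618 and 726 TPM in scrambled long-tail libraries. Its mean over the 8 libraries, 629 TPM, was higher than that of 98.6% of tested genes. Olig2 lies 41095 bases before Olig1 on chromosome 16, on the same strand, and was second. It stood at 145 and 144 TPM in knockdown total, 170 and 135 TPM in scrambled total, 128 and 152 TPM in knockdown long-tail and 143 and 149 TPM in scrambled long-tail libraries. Its highest library was 1.33 times its lowest, the narrowest range of the 8 genes. The 2 neighbours varied together across the libraries (r = 0.94, 8 libraries, on the log2(TPM + 1) scale, a description only, since the libraries share their groups). All 8 libraries had Olig1 above Olig2, with no overlap of their ranges.

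Among the SoxE factors, Sox10, which acts with Olig2 in the lineage and later on myelin genes, stood at 95 and 63 TPM in knockdown total, 138 and 87 TPM in scrambled total, 77 and 77 TPM in knockdown long-tail and 102 and 69 TPM in scrambled long-tail libraries. Sox8, its close relative, stood at 60 and 61 TPM in knockdown total, 77 and 58 TPM in scrambled total, 56 and 52 TPM in knockdown long-tail and 57 and 57 TPM in scrambled long-tail libraries. Sox10 varied 2.19-fold between its lowest and highest library and Sox8 1.48-fold. Nkx2-2 stood at 17 and 13 TPM in knockdown total, 26 and 11 TPM in scrambled total, 17 and 14 TPM in knockdown long-tail and 25 and 14 TPM in scrambled long-tail libraries. At this level the rounding to whole TPM is up to 4.55% of its lowest value.

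The other 3 genes encode cell-surface proteins. Gpr17 stood at 45 and 40 TPM in knockdown total, 70 and 56 TPM in scrambled total, 33 and 29 TPM in knockdown long-tail and 50 and 38 TPM in scrambled long-tail libraries. Both knockdown libraries were below both scrambled libraries in each fraction. Pdgfra stood at 33 and 46 TPM in knockdown total, 40 and 47 TPM in scrambled total, 23 and 19 TPM in knockdown long-tail and 23 and 33 TPM in scrambled long-tail libraries. Cspg4 was the lowest by the mean over the 8 libraries. It stood at 15 and 19 TPM in knockdown total and 19 and 19 TPM in scrambled total libraries. In long tails it stood at 13 and 8 TPM in knockdown and 14 and 12 TPM in scrambled libraries. Knockdown and scrambled libraries of Pdgfra and of Cspg4 overlapped or touched in both fractions.

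The order of the means was Olig1, Olig2, Sox10, Sox8, Gpr17, Pdgfra, Nkx2-2 and Cspg4. TPM is scaled by length, which allows levels of different genes to be set side by side within a library. The means pool both fractions, however, and longer transcripts tended to hold a lower share of long-tail than of total libraries. In total RNA alone, Cspg4 averaged 17.0 TPM in knockdown and 19.0 TPM in scrambled neurons, and Nkx2-2 15.0 and 18.5 TPM. Each of Olig1, Olig2, Sox10 and Sox8 was above the next gene in all 8 libraries. Gpr17 was above Pdgfra, and Pdgfra above Nkx2-2, in 7 of 8 libraries, and Nkx2-2 was above Cspg4 in 6 of 8. The ranges over all 8 libraries overlapped for every neighbouring pair except Olig1 and Olig2. Genes annotated on the opposite strand overlap the span of Olig1, Gpr17 (Lims2), Nkx2-2, Sox8 and Pdgfra, and the use of strand in counting is not stated, so reads of these partners could not be told apart from theirs.

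**Figure D1:**
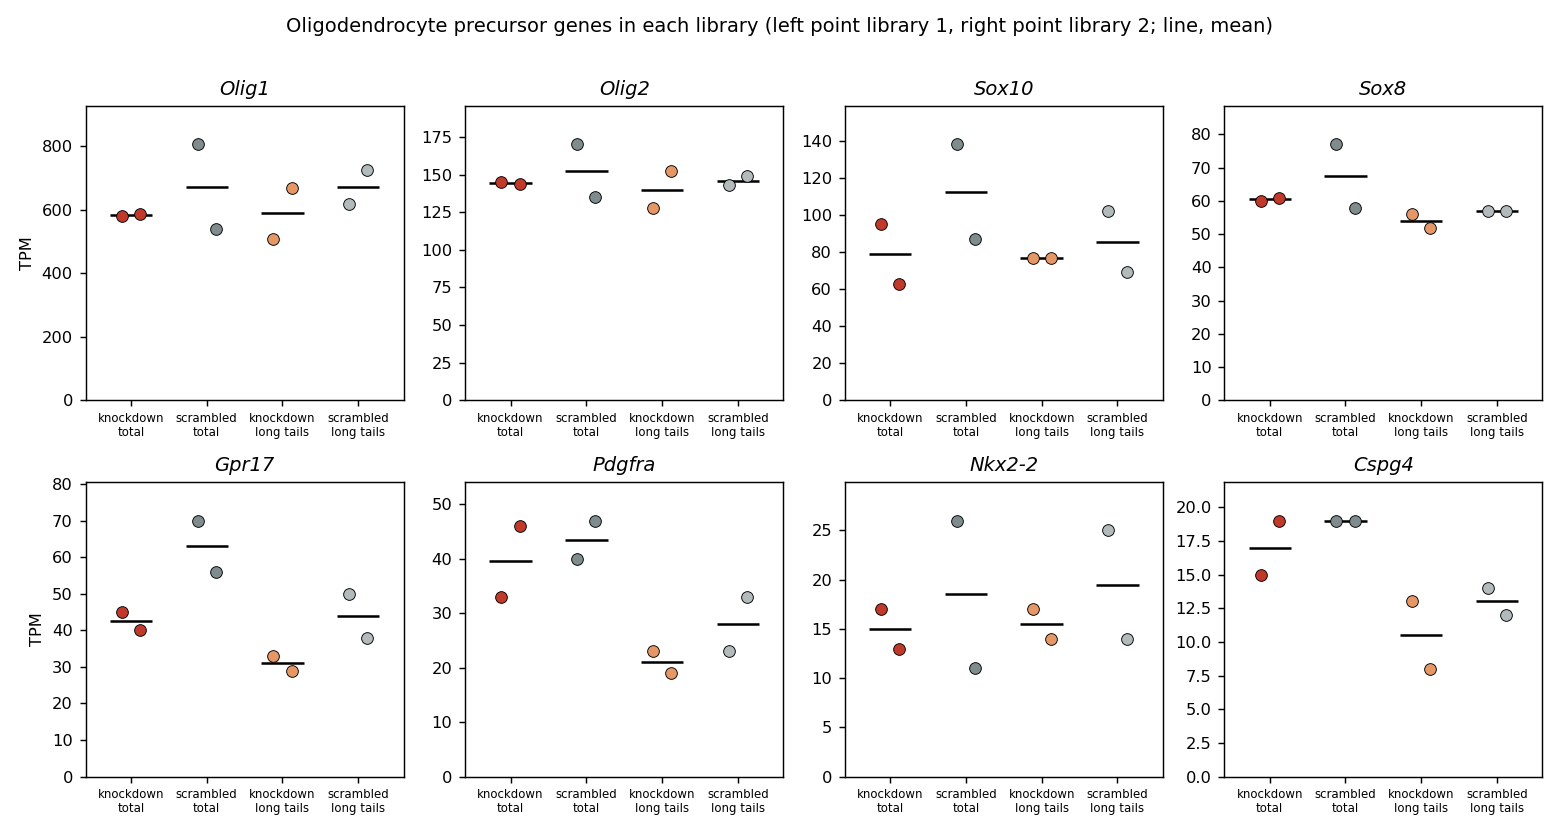
TPM (y axis, from 0, a scale of its own in each panel) of the 8 precursor genes in each library, by group along the x axis; points are libraries and lines are means of 2. Gpr17 is the gene whose 2 knockdown points lie below both scrambled points in total RNA and in long tails, and scrambled total library 1 is the highest of all 8 libraries for 6 of the 8 genes.

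In total RNA, no precursor gene passed the test for a knockdown difference, and Gpr17 had the largest. The limma fit called 0 of the 8 genes and 0 of 13681 genes in all (0%) at a Benjamini-Hochberg adjusted p under 0.05, and 588 genes had an unadjusted p under 0.05 on the lower side and 280 on the higher side. Gpr17 averaged 42.5 ± 3.54 TPM in knockdown and 63.0 ± 9.9 TPM in scrambled libraries (SD, n = 2 each), a difference of -0.55 ± 0.19 (SE; limma adjusted p = 0.701). It was the sole precursor gene whose knockdown libraries were both below the scrambled ones in total RNA, 1 of 8, against 20.1% of all genes. In bulk RNA, fewer cells of a type and less RNA per cell cannot be told apart.

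Sox10 averaged 79.0 ± 22.6 TPM in knockdown and 112.5 ± 36.1 TPM in scrambled libraries (SD, n = 2 each), a difference of -0.50 ± 0.32 (SE; limma adjusted p = 0.927). Its knockdown and scrambled libraries overlapped. The other 6 differences lay between -0.18 for Nkx2-2 and -0.068 for Olig2, each smaller than its SE. All 8 were below 0, as were 60.2% of all tested genes, and their median was -0.17 against -0.072 for all genes. That count rested on scrambled total library 1: without it, 4 of the 8 were below 0 (Gpr17, Sox10, Pdgfra and Cspg4), Olig1 stood at 0.11, Olig2 at 0.097, Sox8 at 0.06 and Nkx2-2 at 0.40, and the median was -0.051. The 95% interval for Olig2 ran from -0.44 to 0.30 and that for Olig1 from -0.78 to 0.42, so that changes of these sizes in either direction were not detectable with 2 libraries a group.

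In long tails the picture was alike for Gpr17. It averaged 31.0 ± 2.83 TPM in knockdown and 44.0 ± 8.49 TPM in scrambled libraries (SD, n = 2 each), a difference of -0.48 ± 0.19 (SE; limma adjusted p = 0.557). It was the 1 precursor gene below without overlap in both fractions, against 9.49% of all genes. Sox8 was also below without overlap in long tails, at 56 and 52 TPM in knockdown against 57 and 57 TPM in scrambled libraries, a difference of -0.078, which makes 2 of 8 genes against 17.1% of all genes. The limma fit called 0 of the 8 and 0 of 13681 genes (0%), with 885 and 308 genes at an unadjusted p under 0.05 on the lower and higher side.

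Pdgfra differed by -0.38, Cspg4 by -0.32, Nkx2-2 by -0.27, Olig1 by -0.20, Sox10 by -0.12 and Olig2 by -0.065 in long tails. All 8 were below 0, as were 61.2% of all genes, and the median was -0.23 against -0.10. With library medians aligned, Olig2, Sox8 and Sox10 stood at 0.087, 0.075 and 0.03, and the median of the 8 genes moved to -0.081 and that of all genes to 0.049. Without knockdown long-tail library 2, Cspg4 stood at 0.0037; without knockdown long-tail library 1, Olig2 stood at 0.058; and without scrambled long-tail library 1, Sox10 stood at 0.16 and Nkx2-2 at 0.13. The authors' deposited tables of adjusted p under 0.05, 104 genes for total RNA and 97 for long tails, list 0 of the 8 precursor genes.

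**Figure D2:**
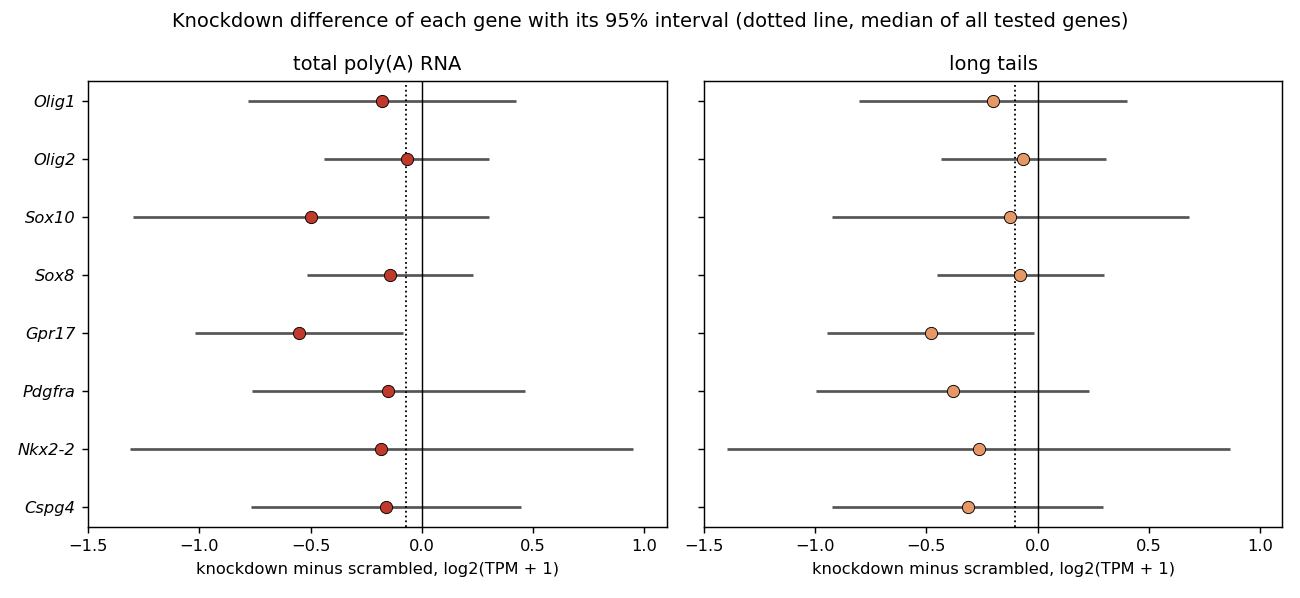
Knockdown minus scrambled on the log2(TPM + 1) scale (x axis) for each precursor gene (y axis) in total RNA and in long tails; points are limma estimates from 2 libraries against 2, bars are 95% intervals, and the dotted line is the median of all tested genes. The intervals of Gpr17 alone stay below 0, from -1.02 to -0.084 in total RNA and from -0.95 to -0.015 in long tails, before adjustment over 13681 genes; with library medians aligned the long-tail points of Olig2, Sox8 and Sox10 move above 0.

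Whether the knockdown difference itself differed between long tails and total RNA was tested as an interaction. No gene was called (0%), with 66 and 54 genes at an unadjusted p under 0.05 on the lower and higher side by limma. For the 8 genes the interaction ran from -0.23 for Pdgfra to 0.37 for Sox10, with a median of -0.0095 and adjusted p = 1 for each. The interval for Gpr17 ran from -0.59 to 0.73 around 0.069. Its sign turned for 7 of the 8 genes, all but Sox10, when single libraries were left out or another scaling was used.

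Lists of later stages of the lineage had lower medians than the precursor genes, and none of their genes passed the test. With only the libraries of the comparison in the fit, Neu4 passed in total RNA at -0.58 (limma adjusted p = 0.0418) and Mog in long tails at -1.0 (adjusted p = 0.0327). Neu4 stood at 1 TPM in both knockdown total and 2 TPM in both scrambled total libraries. Mog stood at 1 TPM in both knockdown long-tail and 3 TPM in both scrambled long-tail libraries. Neither gene had any spread within these groups after rounding to whole TPM. The lists were chosen with earlier results of these data known. Of 23 tested genes of other precursor-enriched genes, 20 were below 0 in total RNA, with a median of -0.18. Of 18 differentiation-committed genes 15 were below 0, with a median of -0.29, and of 19 tested myelin and mature oligodendrocyte genes 17 were below 0, with a median of -0.52. The corresponding medians in long tails were -0.17, -0.38 and -0.59, and -0.0165, -0.23 and -0.43 with library medians aligned. Whether these lists differ from the precursor genes was not tested. Markers of astrocytes, microglia, pericytes and smooth muscle were mostly below 0 as well, with 0 called in each list. In total RNA 15 of 16 tested astrocyte markers were below 0, with a median of -0.27, and 14 were with library medians aligned, with a median of -0.20. Of the 16, 6 were below without overlap in total RNA, against 20.1% of all genes. So were 4 of the 23 other precursor-enriched genes, 11 of the 18 differentiation-committed genes and 8 of the 19 myelin and mature oligodendrocyte genes. Of 6 tested microglia markers 5 were below 0, with a median of -0.33, and of 7 tested pericyte and smooth muscle markers 7 were, with a median of -0.27. Most of the 6 microglia markers, C1qa and C1qc among them, stood at 5 TPM or less in every library, where values move in whole steps. In long tails the medians were -0.29 for astrocyte, -0.27 for microglia and -0.14 for pericyte and smooth muscle markers, and the last stood at 0.0077 with library medians aligned. Of 11 tested fibroblast and meningeal markers 8 were below 0 in total RNA, with a median of -0.20. In long tails 5 of these 11 were below 0 and 4 above, with a median of 0, and of 0.15 with library medians aligned. Of 17 neuronal markers 10 were above 0 and 7 below in total RNA, with a median of 0.11. In long tails 12 of the neuronal markers were above 0 and 5 below, with a median of 0.15. The part of these cell types in the differences was not tested.

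The myelin genes Mbp, Cnp and Mog encode proteins of the myelin sheath. Mbp stood at 185 and 182 TPM in knockdown total and 452 and 622 TPM in scrambled total libraries, and at 155 and 227 TPM in knockdown long-tail and 414 and 661 TPM in scrambled long-tail libraries. Its difference was -1.53 ± 0.31 in total RNA (SE; limma adjusted p = 0.403) and -1.47 in long tails (adjusted p = 0.365), and the authors' deposited table gives it as -1.13 with an adjusted p of 6.47e-05 in total RNA. Mog, at 4 TPM or less, differed by -0.95 and Cnp by -0.69 in total RNA, each without overlap of the libraries. Among committed-stage genes, Myrf, a transcription factor needed for myelin gene expression, stood at 12 and 8 TPM in knockdown total and 25 and 17 TPM in scrambled total libraries, a difference of -1.0. Sirt2, a deacetylase abundant in oligodendrocytes, differed by -0.48. Neu4 and Kif19a, at 3 TPM or less, differed by -0.58 and -0.42.

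Among the other precursor-enriched genes, Ccnd1, a cyclin of the G1 phase, stood at 252 and 252 TPM in knockdown total and 310 and 299 TPM in scrambled total libraries, a difference of -0.27 (limma adjusted p = 0.709). Gpr37l1 differed by -0.58 with overlap, and Sulf2 by -0.20 and Lhfpl3 by -0.18 without overlap, in total RNA. The 20 proliferation markers summed to 265 to 364 TPM in knockdown and 284 to 370 TPM in scrambled libraries, which overlap. In total RNA 7 of them were above 0 and 7 below, with a median of 0. In long tails 4 of them were above 0 and 16 below, with a median of -0.13 against -0.10 for all genes. With library medians aligned, 7 of the 20 proliferation markers were below 0 in long tails, with a median of 0.020. Their part in the differences was not tested.

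Set against Olig2 within each library, Mbp gave a ratio of 1.28 and 1.26 in knockdown total and 2.66 and 4.61 in scrambled total, and of 1.21 and 1.49 in knockdown long-tail and 2.90 and 4.44 in scrambled long-tail libraries. All 4 knockdown ratios were below all 4 scrambled ratios. Gpr17 gave a ratio to Olig2 of 0.31 and 0.278 in knockdown total and 0.412 and 0.415 in scrambled total, and of 0.258 and 0.191 in knockdown long-tail and 0.35 and 0.255 in scrambled long-tail libraries. The Gpr17 ratios did not overlap in total RNA and overlapped in long tails. Pdgfra gave ratios of 0.228 and 0.319 in knockdown total and 0.235 and 0.348 in scrambled total libraries, which overlapped. These ratios were chosen after the values were seen and carry no test.

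**Figure D3:**
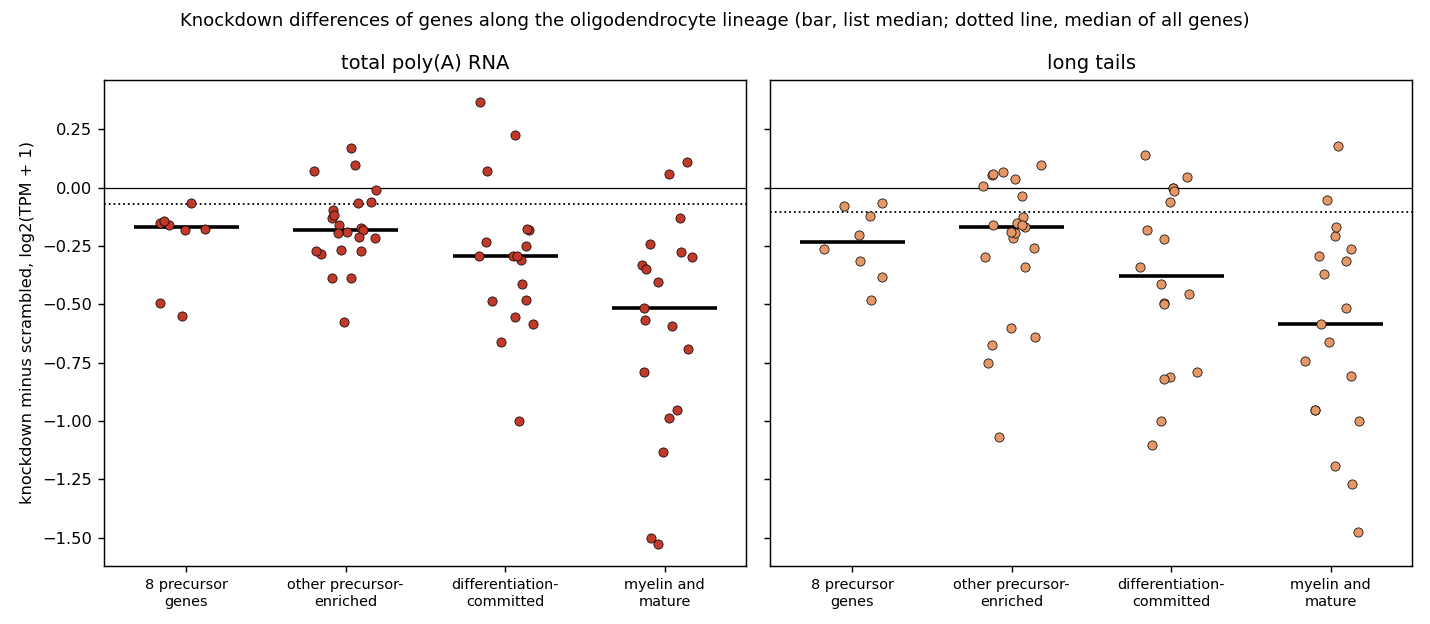
Knockdown minus scrambled on the log2(TPM + 1) scale (y axis) for each tested gene of 4 lists along the oligodendrocyte lineage (x axis), in total RNA and in long tails; points are genes, spread sideways at random, bars are list medians and the dotted line is the median of all genes. Medians in total RNA are -0.17 for the 8 precursor genes, -0.18 for other precursor-enriched genes, -0.29 for committed and -0.52 for myelin genes.

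PDGFRA binds dimers of PDGF-A and signals through RAS, MAP kinases and other routes. Of 7 PDGF ligands and receptors, Pdgfra included, 5 were below 0 and 2 above in total RNA, with a median of -0.085 and 0 called. Pdgfa, the main ligand, stood at 62 and 54 TPM in knockdown total and 59 and 44 TPM in scrambled total libraries and at 57 and 55 TPM in knockdown long-tail and 39 and 45 TPM in scrambled long-tail libraries. Its difference was 0.18 in total RNA (limma adjusted p = 0.981) and 0.41 in long tails (adjusted p = 0.582), where the libraries did not overlap.

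Of 20 genes of PDGF receptor signalling, 12 were below 0 in total RNA, with a median of -0.042, and 16 in long tails, with a median of -0.34. With library medians aligned, 13 of the 20 were below 0 in long tails, with a median of -0.19. The part of knockdown long-tail library 2, the one far from the rest, in the long-tail median was not tested. Stat3, a transcription factor that such receptors can activate, stood at 62 and 56 TPM in knockdown total and 111 and 102 TPM in scrambled total libraries, a difference of -0.84 ± 0.14 (SE; limma adjusted p = 0.29). Mapk3, the kinase ERK1, stood at 149 and 132 TPM in knockdown total and 296 and 281 TPM in scrambled total libraries, a difference of -1.03 ± 0.19 (SE; adjusted p = 0.334). Hras stood at 93 and 77 TPM in knockdown total and 60 and 67 TPM in scrambled total libraries, a difference of 0.41. The authors' deposited table for total RNA lists Stat3 at -0.66 (adjusted p of 0.0236) and Mapk3 at -0.81 (adjusted p of 0.00452), and that for long tails lists Stat3 at -0.73 and Hras at 0.71. These genes are expressed in many cell types. Of 20 brakes on oligodendrocyte differentiation, such as the Id, Hes and Notch genes, 12 were below 0 and 5 above in total RNA, with a median of -0.041. The Hes genes of this list were above 0, its Id genes lay on both sides and its Notch gene was below. Of 13 tested relatives and partners of the Olig and Nkx factors 10 were below 0, with a median of -0.15, and of 6 SoxD and SoxE factors 5 were below 0, with a median of -0.13. None of these genes passed the test, and the last 2 lists hold 5 of the 8 precursor genes. In total RNA with library medians aligned, the median of the brakes stood at 0.023 and that of PDGF receptor signalling at 0.022. The side of 0 on which these lists lay in total RNA thus depended on the scaling.

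Between the fractions, Pdgfra, Cspg4, Gpr17 and Sox8 were lower in long tails than in total RNA, and none of them passed the test. In knockdown neurons Pdgfra averaged 21 ± 2.83 TPM in long tails and 39.5 ± 9.19 TPM in total RNA, and in scrambled neurons 28 ± 7.07 TPM in long tails and 43.5 ± 4.95 TPM in total RNA (SD, n = 2 each). The differences were -0.87 ± 0.25 in knockdown (SE; limma adjusted p = 0.14) and -0.64 ± 0.25 in scrambled neurons (adjusted p = 0.377). Cspg4 differed by -0.67 in knockdown and -0.52 in scrambled neurons, Gpr17 by -0.44 and -0.51, and Sox8 by -0.16 and -0.23. These 4 genes were lower in long tails without overlap in both knockdown and scrambled neurons, against 29.4% of all genes. With library medians aligned, Sox8 stood at 0.17 in knockdown and 0.016 in scrambled neurons.

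Sox10 differed by -0.0071 in knockdown and -0.38 in scrambled neurons, Olig2 by -0.051 and -0.053, Olig1 by 0.001 and 0.023, and Nkx2-2 by 0.05 and 0.13, all with overlap of the libraries. Another scaling moved Sox10 across 0 in knockdown neurons, and Olig1 and Olig2 in knockdown and in scrambled neurons. With library medians aligned, Sox10 stood at 0.32 in knockdown neurons and Olig2 at 0.28 in knockdown and 0.19 in scrambled neurons; with quantile normalization, Olig1 stood at -0.11 in knockdown and -0.022 in scrambled neurons. In the limma fit 0 genes were called in either comparison (0% in each), with 3436 and 126 genes on the lower and higher side at an unadjusted p under 0.05 in knockdown and 1764 and 36 in scrambled neurons. The count in knockdown neurons depended on knockdown long-tail library 1, without which 2125 genes were called, Cspg4 among them at -0.99 (adjusted p = 0.0385); there the group rests on library 2, the one far from the rest, and is assumed to vary like the other groups. Without knockdown total library 1, 12 genes were called in knockdown neurons and 57 in scrambled neurons, and the count in scrambled neurons was 56 without knockdown total library 2 and 41 without knockdown long-tail library 2, with none of the 8 genes among them. The median of all genes was -0.22 in knockdown and -0.22 in scrambled neurons, and aligned medians moved it to 0.11 and 0.022.

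Transcript lengths were 8121 bases for Cspg4, 6834 for Pdgfra, 5195 for Gpr17, 3000 for Sox8, 2780 for Sox10, 2530 for Olig2, 2162 for Olig1 and 2120 for Nkx2-2. Longer transcripts tended to hold a lower share of long-tail than of total libraries. Over the 8 genes the correlation of the long-tail minus total difference with log2 length was r = -0.96 in knockdown and r = -0.90 in scrambled neurons. Over the 12606 tested genes with a transcript (92.1%) it was r = -0.73 and r = -0.71, genes not being independent replicates. The median long-tail minus total difference of genes under 1500 bases was 0.24 in knockdown and 0.15 in scrambled neurons, and that of genes of 6000 bases and over was -0.79 in knockdown and -0.51 in scrambled neurons. Without knockdown long-tail library 2 the correlation in knockdown neurons was r = -0.79 over the 8 genes and r = -0.46 over all genes.

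The place of each gene among genes of like length varied. Of genes of 6000 bases and over, 40.1% lay below Pdgfra in knockdown and 19.3% in scrambled neurons, and 65% and 47.9% lay below Cspg4. Of genes from 4000 to under 6000 bases, 55.8% lay below Gpr17 in knockdown and 18% in scrambled neurons. Of genes from 2500 to under 4000 bases, 80.2% lay below Sox10 in knockdown and 15.8% in scrambled neurons, 75.8% and 83.9% below Olig2, and 59.8% and 52.6% below Sox8. Of genes from 1500 to under 2500 bases, 59.2% lay below Nkx2-2 in knockdown and 88.2% in scrambled neurons, and 51.3% and 71.6% below Olig1. The part of transcript length in these differences was not tested.

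The knockdown difference in long tails was lower for longer transcripts, and this rested on knockdown long-tail library 2. Over all genes, r with log2 length was -0.37 in long tails and -0.03 in total RNA, and over the 8 genes -0.66 in long tails and -0.10 in total RNA. Without knockdown long-tail library 2, r in long tails was 0.12 over all genes and 0.13 over the 8 genes. Among genes of like length, 14.8% lay below Gpr17 for the knockdown difference in long tails and 2.8% in total RNA. For Pdgfra the shares were 45.4% and 34.9%, and for Sox10 43.9% in long tails and 3.73% in total RNA.

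**Figure D4:**
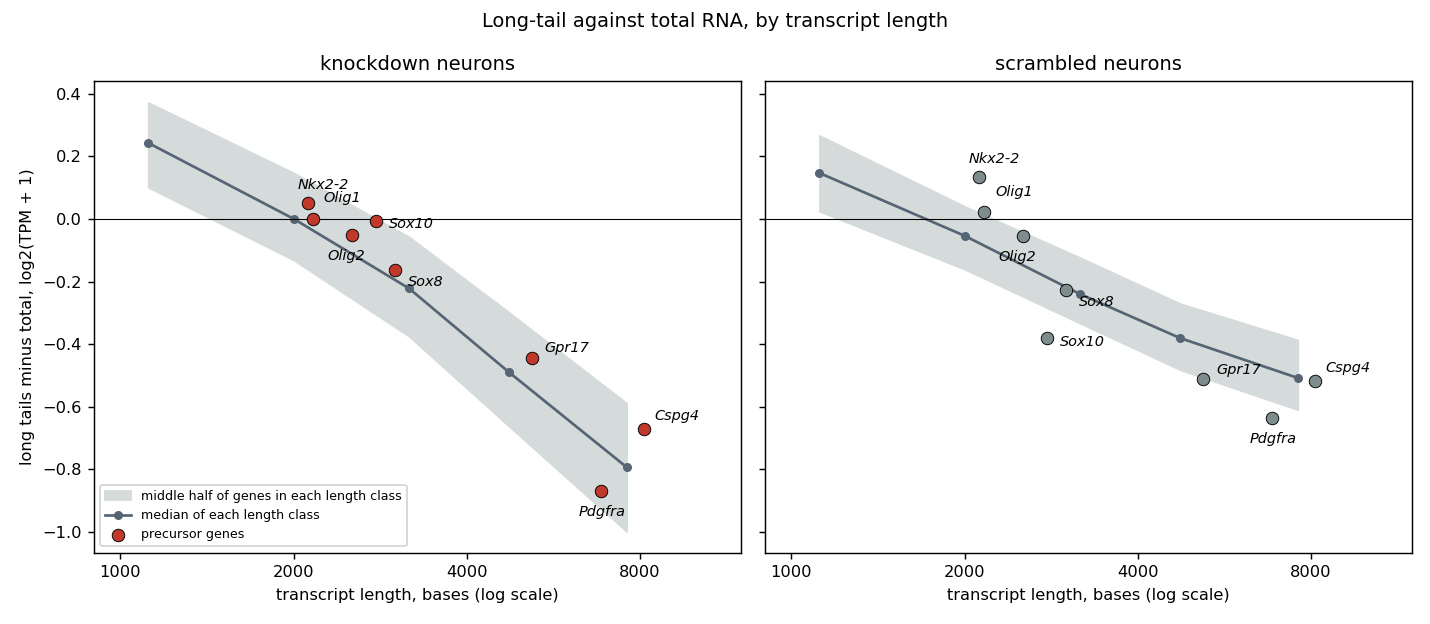
Long tails minus total on the log2(TPM + 1) scale (y axis) against transcript length in bases (x axis, log scale) in knockdown and in scrambled neurons; points are the 8 precursor genes, the line joins medians of 5 length classes of all genes and the band spans their quartiles. Cspg4, Pdgfra and Gpr17, the 3 longest, lie lowest in knockdown and scrambled neurons, from -0.87 to -0.44; with library medians aligned Olig2 and Sox8 move above 0 in both kinds of neurons and Sox10 in knockdown neurons.

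Across the 8 libraries the precursor genes did not vary as a single block. Beside the Olig pair, Pdgfra and Cspg4 correlated at r = 0.86 and Gpr17 and Sox8 at r = 0.80, whereas Pdgfra and Nkx2-2 correlated at r = -0.28. Sox8 and Gpr17 were most like the mean of the other 7 genes, at r = 0.92 each, and Olig1 least, at r = 0.36. Gpr17 and Nkx2-2 were higher in library 1 than in library 2 in all 4 groups, and Sox10 in 3 of 4. The labels give no meaning to these numbers.

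Among the 10 genes outside the set with the highest correlation with the mean of the 8, taken from genes of at least 5 TPM, were Rexo1, Mob3a, Pisd-ps1, Itga7, Pom121, Dennd4b, Map6d1, Megf11 and Rap2b, from r = 0.97 to r = 0.96 over 8 libraries. Megf11 is also on the list of other precursor-enriched genes, and stood at 16 and 17 TPM in knockdown total, 22 and 17 TPM in scrambled total, 13 and 11 TPM in knockdown long-tail and 15 and 14 TPM in scrambled long-tail libraries. These correlations share the group structure and the scaling of the libraries and are given as a description.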

How the data were processed

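Polyadenylated RNA of 8 libraries was sequenced with the Nextflex qRNA-Seq Kit v2, per the labels. CASAVA, TopHat2, RSEM, DESeq, DESeq2 and mm10 are named in the submitters' processing notes; roles, versions and any use of molecular indexes are not stated. The deposited table of genes holds a score per library, TPM that the authors rounded to whole numbers; sums ran from 999689 to 999809 and read depth is unknown, which allows no counting interval. Tables deposited by the authors give log2 fold changes and adjusted p-values, for genes under 0.05 alone. Their sign ran against the TPM differences in 104 of 104 and 97 of 97 genes and was turned to knockdown over scrambled.

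Genes averaging 1 TPM or more were tested as log2(TPM + 1) in 1 limma fit (3.58.1, R 4.3.3; eBayes with trend, two-sided) of 4 group means, with 5 contrasts and Benjamini-Hochberg adjustment per contrast; the pseudocount understates differences of low genes. An exact permutation test of 2 against 2 cannot go below 0.333, so none was run. The fit was tested on simulated data with planted differences far larger than those of the 8 genes, which tells nothing of differences of their size. No 2 libraries held near-identical values (at most 20.9% of genes equal). By rule, the genes named outside the 8 were Cnot7 and up to 4 tested genes per list with the smallest p in total RNA. The rule also took the 10 genes most alike in profile and listed genes in the authors' tables. Gfap, Acta2, Tagln and the markers listed at 0 are named outside this rule. The other genes of the lists are given as sums or counts alone. Some genes that this rule takes are left out of the text.

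The 8 genes and all lists were chosen with earlier results of these data known. Transcript length, 3′ untranslated region and promoter motifs and within-library ratios were added after the values were seen. The alternatives were run for the 8 genes, Cnot7, Pdgfa and the named genes of 4 lists; this narrowing was made after a first run over all named genes, which gave many changes of sign among genes not described here. Transcripts were GENCODE M21 (GRCm38), the longest complete coding one per gene; 92.1% of tested genes had one.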

Additional observations from a re-analysis of the deposited data

How the results depend on the processing

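Over 20 other settings, the calls for the 8 genes stayed absent in all 5 contrasts, except that Cspg4 passed for long tails minus total in knockdown neurons without knockdown long-tail replicate 1. In what follows, counts and differences are given in this order: the knockdown difference in total RNA, that in long tails, and the difference of long tails from total in knockdown and in scrambled neurons. The fit called 0 genes in each. It called 43, 54, 56 and 33 genes with no filter on low values, 6, 5, 1 and 2 at a mean of at least 5 TPM, 10, 11, 2 and 2 at 10 TPM, 8, 5, 2 and 1 with robust eBayes, and 50, 83, 97 and 87 with only the libraries of the comparison; the last fit could not be made for the interaction, which needs all 8. Among the named genes, Cnot7 passed at 10 TPM (adjusted p of 0.0299 in total RNA and 0.024 in long tails), and Neu4 in total RNA (0.0418) and Mog in long tails (0.0327) with only the libraries of the comparison. Neu4 and Mog had no spread within the groups of these comparisons after rounding to whole TPM. Quantile normalization gave 4 and 1 calls, and leaving out Rn45s 1 and 1, in the knockdown comparisons. The causes were not tested.

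Signs turned as follows. With library medians aligned, the median of the 8 genes was -0.081 for the knockdown difference in long tails, 0.22 for long tails minus total in knockdown and -0.061 in scrambled neurons. There Olig2, Sox10 and Sox8 stood at 0.087, 0.0299 and 0.075 for the knockdown difference in long tails, and at 0.28, 0.32 and 0.17 for long tails minus total in knockdown neurons; Olig2 and Sox8 stood at 0.19 and 0.016 in scrambled neurons, and the interaction at 0.067 for Olig1 and 0.0043 for Nkx2-2. With quantile normalization, the median was -0.14 for long tails minus total in scrambled neurons; Olig1, Olig2, Sox10 and Sox8 stood at -0.11, 0.0304, 0.13 and 0.017 in knockdown neurons, Olig1 and Olig2 at -0.022 and 0.089 in scrambled neurons, and the interaction of Olig2 at -0.059. With Rn45s left out, Sox10 stood at 0.0059 in knockdown and Olig2 at 0.029 in scrambled neurons, and the interactions of Olig2 and Sox8 at -0.067 and -0.0044.

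Leaving out 1 library at a time gave these ranges. For the knockdown difference in total RNA, calls ran from 0 to 1, the median from -0.41 to -0.051, Pdgfra from -0.38 to 0.083, Olig1 from -0.47 to 0.11, Olig2 from -0.23 to 0.097, Nkx2-2 from -0.77 to 0.40, Sox8 from -0.34 to 0.0598 and Pdgfa from -0.028 to 0.39. In long tails, calls ran from 0 to 2, Cspg4 from -0.63 to 0.0037, Olig2 from -0.19 to 0.058, Sox10 from -0.40 to 0.16, Nkx2-2 from -0.66 to 0.13 and Gpr37l1 from -0.36 to 0.0397. For long tails minus total in knockdown neurons, calls ran from 0 to 2125, Olig1 from -0.20 to 0.20, Olig2 from -0.17 to 0.0725, Sox10 from -0.30 to 0.29 and Nkx2-2 from -0.13 to 0.23. In scrambled neurons, calls ran from 0 to 57, the median from -0.48 to -0.038, Olig1 from -0.26 to 0.31, Olig2 from -0.22 to 0.11 and Nkx2-2 from -0.45 to 0.72. For the interaction, the median ran from -0.15 to 0.25, Pdgfra from -0.48 to 0.019, Cspg4 from -0.47 to 0.16, Olig1 from -0.31 to 0.27, Olig2 from -0.16 to 0.17, Gpr17 from -0.12 to 0.26, Nkx2-2 from -0.67 to 0.50 and Sox8 from -0.14 to 0.27. A lone library is assumed to vary like the other groups. Gpr17 stayed below 0 in the knockdown comparisons under all 20 settings, from -0.71 to -0.39 in total RNA and from -0.68 to -0.29 in long tails, with adjusted p from 0.361 to 1 and from 0.278 to 0.966.

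With the replicate number as a block, 0 genes were called in each contrast and the medians were the same (-0.17 in total RNA and -0.23 in long tails). Deviations of same-numbered libraries correlated between groups at r from -0.11 to 0.60, with 2 numbers and no pairing stated in the labels. With the numbers crossed for long tails against total in knockdown neurons, a setting chosen after seeing the data, 0 genes were called. Depth is unknown, and values of 1 to 3 TPM move in whole steps.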
